A study of Mus musculus with 2 samples.

Results

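Retinoid uptake and metabolism was followed in newborn mouse intestine through 9 genes, Rbp2, Bco1, Isx, Scarb1, Lrat, Rdh7, Aldh1a1, Aldh1a2 and Cyp26b1, out of 43346 Ensembl genes measured. They were chosen by name for their steps in the pathway, and all 9 were found in the gene tables of both libraries. The tissue came from 2 pups of the B6NCrl strain at postnatal day 0, named by the labels as pup 1 and pup 2 of 1 pregnancy. Each pup gave 1 total RNA library, made from 10 ng of RNA with spike-in transcripts added. There was no treatment, no mutant and no second group, so the data describe the levels of these genes and how far littermates differ. An exact sign-flip test over 2 values cannot fall below p = 0.5, and no p-value is given. The labels name the whole organ only, without a segment. The expected counts (estimated reads per gene) summed to 44568098 in pup 1 and 34797495 in pup 2. Levels are given as TPM, each gene's length-normalised share of all transcripts in a library, so that genes can be compared with each other.

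Vitamin A reaches the newborn gut as retinyl esters, retinol and carotenoids. Scarb1 takes carotenoids and other lipids into the enterocyte, Bco1 cleaves carotene to retinal, Rbp2 binds retinol and retinal in the cytoplasm, and Lrat joins retinol to a fatty acid so that it can leave in chylomicrons. A smaller flow is oxidised, by retinol dehydrogenases to retinal and by Aldh1a enzymes to retinoic acid, which acts through nuclear receptors and is broken down by Cyp26 enzymes. Isx is a homeobox factor of the intestine that retinoic acid induces and that represses Scarb1 and Bco1 in mice.

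The 9 genes fell into an extremely abundant gene, a middle band and a low band. Rbp2 stood at 6292 TPM in pup 1 and 5871 TPM in pup 2. Isx, Aldh1a2, Aldh1a1, Lrat and Scarb1 lay between 21.2 and 61.9 TPM in both pups. Rdh7, Bco1 and Cyp26b1 lay between 0.32 and 0.97 TPM. Thus 6 of 9 genes reached 1 TPM in both pups, against 59.1% of 21461 nuclear protein-coding genes. Rbp2 alone made up 97.5% and 97.2% of the summed TPM of the 9 genes in pups 1 and 2. In order of level, each gene was higher than the next in both pups, and all 8 neighbouring pairs were separated by more than the spread between pups. The gaps were 103-fold from Rbp2 to Isx (log2 6.69 ± 0.17, SD, n = 2) and 23.3-fold from Scarb1 to Rdh7 (log2 4.54 ± 0.13). For 3 of the 8 neighbouring pairs, Aldh1a2 and Aldh1a1, Lrat and Scarb1, and Bco1 and Cyp26b1, the deposited TPM intervals overlapped in both pups, so their order was not resolved at this depth.

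**Figure D1:**
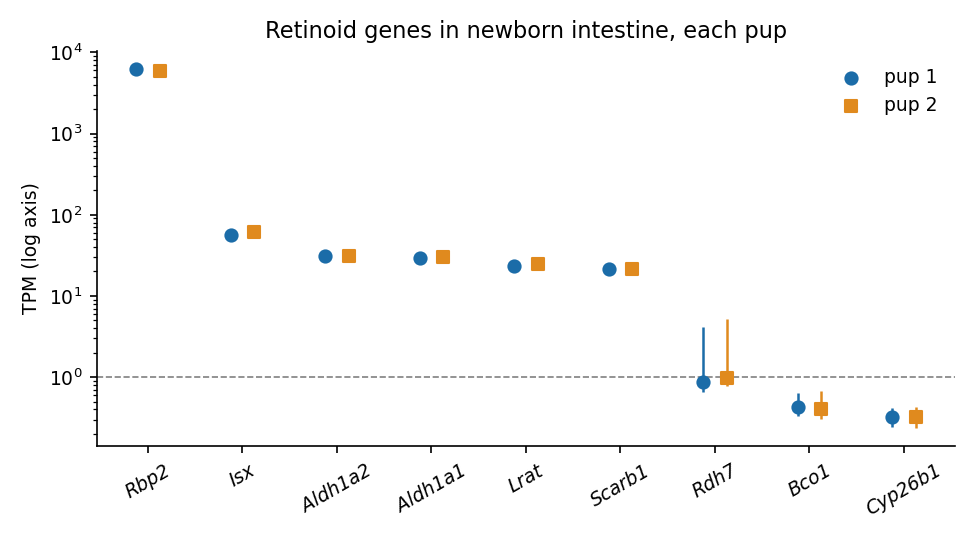
TPM of the 9 retinoid genes in pup 1 (circles) and pup 2 (squares) on a log axis, with the deposited TPM interval as a vertical line and 1 TPM as a dashed line. Rbp2 stands at 6292 and 5871 TPM, 5 genes lie between 21.2 and 61.9 TPM, and Rdh7, Bco1 and Cyp26b1 lie under 1 TPM.

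**Figure D2:**
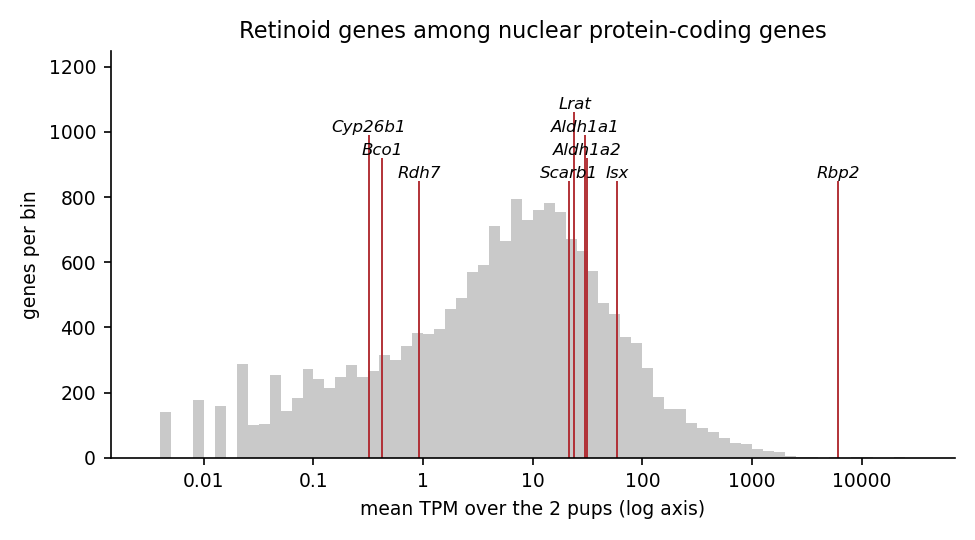
Distribution of the mean TPM (log axis) of nuclear protein-coding genes with a value above 0, with the 9 retinoid genes marked by red lines. Rbp2 ranks 9 of 21461 genes, and Cyp26b1 ranks 14469.

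Rbp2 (ENSMUSG00000032454.5, chromosome 9, 98486115 to 98509781, GRCm38), the cytoplasmic retinol-binding protein of the absorptive enterocyte, averaged 6081 ± 297 TPM (SD, n = 2) and ranked 9 among the nuclear protein-coding genes. Rbp2 took 0.291% and 0.266% of all expected counts in pups 1 and 2. In level over the 2 pups it was nearest to Fth1, a ferritin chain (5809 and 6036 TPM in pups 1 and 2), Apoc3, an apolipoprotein (6951 and 6268 TPM), and Gpx3, a secreted glutathione peroxidase (5351 and 5446 TPM), with distances of 0.12, 0.17 and 0.26 on the log2 TPM scale. Apoc3, like Rbp2, had the higher TPM in pup 1, while Fth1 and Gpx3 had it in pup 2. TPM is scaled differently from the count ratios between pups given below. Of the 4 annotated Rbp2 transcripts, 1 of 672 bases held 99.47% and 99.48% of the gene. None of the 573 windows of 100 bases in the main Rbp2 transcript occurred in a transcript of another gene. The fragment length behind the deposited effective lengths was 100 bases. Rbp4, the retinol carrier of blood plasma, had 12.3 and 12.7 TPM, and Rbp2 exceeded it 482-fold (log2 8.91 ± 0.10, SD, n = 2).

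Other genes for binding and carrying retinoids were led by Ttr, the plasma partner of Rbp4, at 335 and 310 TPM, followed by Fabp5, a fatty acid-binding protein that can also carry retinoic acid, at 53.5 and 56.3 TPM. Of the 8 genes on this list, 6 reached 1 TPM in both pups. Rbp3, the retinoid-binding protein of the eye, had no read in either pup, where 3 counts, the limit a count of 0 allows, would be 0.0673 and 0.0862 CPM (reads scaled to library size). Limits of this kind and count intervals cover counting error only. Liver makes Ttr and Rbp4 in quantity, and the 7 hepatocyte markers summed to 664 and 810 TPM in pups 1 and 2, with 4 of the 7 at 1 TPM or more in both pups. Those 4 were Afp (427 and 551 TPM), Cps1 (174 and 193 TPM), Serpina1a (53.9 and 57.2 TPM) and Fgb (6.01 and 7.0 TPM). The other genes of that list were lower, with Ahsg at 1.23 and 0.45 TPM, Alb at 0.79 and 0.86 TPM and Apoh at 0.61 and 0.74 TPM. Whether the intestine itself makes the higher genes of the list was not tested, so the sum is no measure of liver RNA. The part of liver RNA in the levels of Ttr and Rbp4 was not tested.

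At the uptake step, Scarb1 (ENSMUSG00000037936.11, chromosome 5, 125277087 to 125341094), which encodes the scavenger receptor SR-BI, had 21.3 and 21.2 TPM. The fatty acid transporter Cd36, which also takes part in carotenoid uptake, stood at 127 and 113 TPM, so that Scarb1 was 5.62-fold lower (log2 -2.49 ± 0.12, SD, n = 2). Npc1l1, the cholesterol transporter of the brush border, had 56.8 and 60.6 TPM. Stra6 and Stra6l encode receptors for retinol bound to Rbp4, and they stood far apart. Stra6l had 38.5 and 47.3 TPM, while Stra6 had 0.39 and 0.56 TPM from 27 and 32 reads, below its deposited intervals (0.601 to 1.44 and 0.853 to 1.98 TPM). Scarb1 exceeded Stra6 37.6-fold (log2 5.23 ± 0.31), a log2 ratio that was 3.92 with a pseudocount of 1 TPM and 4.10 from posterior mean TPM.

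Scarb1 was the only one of the 9 genes with more than 1 transcript at 10% or more of the gene in both pups. The transcript of 2521 bases held 70.0% and 65.7% of Scarb1 in pups 1 and 2, and that of 2367 bases held 22.5% and 28.3%. The longer one exceeded the other in both pups, and the remaining 8 transcripts were each under 5%. The 2 transcripts at 10% or more differ in the first exon, which spans 125340757 to 125341094 in the longer and 125340757 to 125341071 in the shorter. The shorter one also skips exon 12 of 13, at chr5:125281105-125281233 on the minus strand of GRCm38. That exon encodes the end of the receptor's cytoplasmic tail. The coding sequences are 1527 and 1518 bases long, so the shorter transcript codes for another end in its place. The 129 bases of exon 12 are shown because the main form of the receptor has them and the minor one, SR-BII, lacks them. The stop codon is in capitals.
Scarb1 exon 12: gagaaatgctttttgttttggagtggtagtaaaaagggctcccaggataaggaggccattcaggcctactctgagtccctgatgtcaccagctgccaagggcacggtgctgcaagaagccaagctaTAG

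Bco1 (ENSMUSG00000031845.11, chromosome 8, 117095854 to 117133720), the enzyme that splits carotene at its centre, was near the bottom of the 9 genes, with 0.43 and 0.41 TPM from 35 and 24 reads in pups 1 and 2. The deposited intervals were 0.333 to 0.645 TPM in pup 1 and 0.303 to 0.669 TPM in pup 2, so both pups had a low level that did not reach 1 TPM. Bco2, a mitochondrial enzyme that cleaves carotenoids off centre, had 3.79 and 4.26 TPM. Bco1 was 7.92-fold lower than Bco2 (log2 -2.99 ± 0.16, SD, n = 2), and the log2 ratio was -1.82 with a pseudocount of 1 TPM.

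Isx (ENSMUSG00000031621.5, chromosome 8, 74873173 to 74893506), the repressor of Bco1 and Scarb1, ranked next below Rbp2 with 56.2 TPM in pup 1 and 61.9 TPM in pup 2. Its transcript of 1793 bases held 98.1% and 96.3% of the gene. Among other homeobox factors of the intestine, Cdx1 had 98.7 and 96.4 TPM, and Cdx2 had 28.1 and 31.3 TPM. Isx exceeded Cdx2 1.99-fold (log2 0.99 ± 0.0096), or log2 0.62 in CPM. Within each pup Isx lay above both genes it represses, with Scarb1 in the middle band and Bco1 under 1 TPM. With 2 pups, no relation between the levels of the 3 genes can be tested.

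The promoters of Rbp2 and Bco1 are shown because they shared a motif although Rbp2 was the highest of the 9 genes and Bco1 one of the 3 under 1 TPM. The pair was chosen after the motifs were seen. RefSeq (GRCm38.p6) gave promoters for 8 of the 9 genes, and the 250 bases before each start site were searched on both strands. The sequences run 5′ to 3′ on the plus strand and end at the last base before the start site. Capitals mark the TATA motif TATAAA, the 9 letters CAAAGGTCA and the direct repeat of AGGTCA with 1 base between its copies, some read on the opposite strand and some overlapping.
Rbp2, chr9:98490287-98490536: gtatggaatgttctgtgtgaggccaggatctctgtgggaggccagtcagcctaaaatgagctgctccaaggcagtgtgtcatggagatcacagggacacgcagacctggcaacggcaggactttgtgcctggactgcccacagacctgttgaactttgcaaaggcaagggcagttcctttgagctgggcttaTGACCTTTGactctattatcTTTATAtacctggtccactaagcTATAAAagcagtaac
Bco1, chr8:117095615-117095864: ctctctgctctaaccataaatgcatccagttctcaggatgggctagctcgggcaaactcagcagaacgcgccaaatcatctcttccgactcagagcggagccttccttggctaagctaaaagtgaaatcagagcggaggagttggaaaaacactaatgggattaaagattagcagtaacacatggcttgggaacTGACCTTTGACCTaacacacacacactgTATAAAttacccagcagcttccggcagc

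CAAAGGTCA lay 58 bases before the start site of Rbp2 and 56 bases before that of Bco1, and in 0.426% of 32851 promoter entries. In Bco1 it was part of the full direct repeat, the form of site that retinoid X receptor pairs and Hnf4 factors can bind, which 11 of the 32851 entries held (0.0335%). TATAAA stood 28 bases before the start of Bco1 and 15 bases before that of Rbp2, where the opposite strand held it again at 38 bases, and 12.4% of entries had it. AGGTCA was in 14.02% of entries. The letters TTTATNG, a form of the Cdx site, were found in Rbp2, Bco1 and Cyp26b1 and in 9.81% of entries, overlapping TATAAA in Rbp2 and Cyp26b1. None of these motifs except a lone AGGTCA in Rdh7 occurred in the windows of the other 5 genes that had one, Isx, Lrat, Rdh7, Aldh1a1 and Aldh1a2. These matches are descriptions of the letters, and binding was not measured.

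At the esterification step, Lrat (ENSMUSG00000028003.6, chromosome 3, 82892579 to 82903973), lecithin retinol acyltransferase, had 23.7 and 24.4 TPM. Dgat1, a triglyceride enzyme that also esterifies retinol, had 207 and 244 TPM, and Lrat was 9.31-fold lower (log2 -3.22 ± 0.14, SD, n = 2). In reads the gap was smaller, with 4472 and 3534 reads for Lrat and 12084 and 10518 for Dgat1, and the single Lrat transcript is 5351 bases long, against 1724 for Dgat1. The log2 ratio in CPM was -1.50. Awat2, a wax and retinol acyltransferase of skin, had 0.11 and 0.10 TPM. Of 9 genes for the hydrolysis of retinyl esters, 4 reached 1 TPM in both pups. They were Lipe, hormone-sensitive lipase (11.8 and 13.6 TPM), Cel, the bile salt-stimulated lipase (4.35 and 6.20 TPM), Lpl, lipoprotein lipase (4.71 and 4.67 TPM), and the pancreatic lipase relative Pnliprp2 (4.15 and 4.30 TPM). Plain pancreatic lipase, Pnlip, had 0 and 3 reads. Cel and Pnliprp2 are also made by the pancreas, and the 6 exocrine pancreas markers, all at 1 TPM or more in both pups, summed to 210.1 and 294 TPM. The ratio of pup 1 to pup 2 was 0.691 for Cel and 1.01 for Pnliprp2, and it ran from 0.615 for Prss2 to 0.948 for Cela1 among those markers. The part of pancreatic RNA in these lipases was not tested.

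Rdh7 was a minor transcript among the genes that interconvert retinol and retinal. Rdh7 (ENSMUSG00000040134.8, chromosome 10, 127884028 to 127888817), a retinol dehydrogenase best known from liver, had 0.86 and 0.97 TPM from 48.8 and 42 expected counts. Its deposited intervals were wide, 0.663 to 4.20 TPM in pup 1 and 0.771 to 5.25 TPM in pup 2, and its posterior mean TPM of 1.96 and 2.39 were above the TPM. A second annotated Rdh7 transcript of 124 bases had no read in either pup. Rdh10, the main retinol dehydrogenase of the embryo, had 18.5 and 20.2 TPM, and Rdh7 was 19.2-fold lower (log2 -4.26 ± 0.019, SD, n = 2). That log2 ratio depended on the scale, at -3.08 from posterior mean TPM, -3.41 with a pseudocount of 1 TPM and -5.36 in CPM, each further off than the spread between pups. Dhrs3, which turns retinal back into retinol, had 74.3 and 79.8 TPM, and Rdh7 was 76.0-fold lower (log2 -6.25 ± 0.038), or log2 -5.07 from posterior mean TPM and -5.35 with a pseudocount of 1 TPM. The most abundant genes of this list were Dhrs4, a retinal reductase (88.0 and 86.5 TPM), and the alcohol dehydrogenases Adh1 (81.8 and 91.7 TPM) and Adh5 (83.3 and 85.1 TPM). Of its 20 genes, 12 reached 1 TPM in both pups, and 3 were under 0.1 TPM in both, Rdh8, Rdh16 and Rdh19, with Rdh8 at no read.

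Rdh7 belongs to a cluster on chromosome 10, where Rdh1, Rdh9, Rdh16, Rdh19, Rdh16f2 and Rdh7 lie within 129097 bases, from 127759721 to 127888817. The coding sequence of Rdh7 was 87.1% identical to that of Rdh1 and 85.1% to that of Rdh9. Of 1579 windows of 100 bases in Rdh7, 4.12% occurred in a transcript of another gene, so the rest of its windows were its own among annotated transcripts. For Rdh9 this share was 87.5%, which makes its 1.71 and 1.82 TPM uncertain. Rdh1 had 0.10 and 0.08 TPM, and Rdh7 exceeded it 5.34-fold (log2 2.42 ± 0.22), a log2 ratio that ran from 0.81 with a pseudocount of 1 TPM to 3.54 from posterior mean TPM, with 1.73 in CPM and 3.35 with no pseudocount.

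For the step from retinal to retinoic acid, Aldh1a1, Aldh1a2 and Aldh1a3 lay between 29.5 and 37.4 TPM in both pups, and the other 2 genes of the group lay lower. Aldh1a2 (ENSMUSG00000013584.5, chromosome 9, 71215789 to 71296243), the main retinoic acid-forming enzyme of embryonic mesenchyme, had 30.8 and 31.4 TPM. Aldh1a1 (ENSMUSG00000053279.6, chromosome 19, 20492715 to 20643465), its relative in adult epithelia and liver, had 29.5 and 30.4 TPM. The pair differed by log2 -0.056 ± 0.013 (Aldh1a1 over Aldh1a2), with Aldh1a1 lower in both pups, and the deposited intervals overlapped. Aldh1a3, the third enzyme of the family, was higher, with 36.5 and 37.4 TPM, and Aldh1a1 was 1.23-fold lower (log2 -0.30 ± 0.0069), or log2 -0.96 in CPM. The 3 coding sequences were 68.6% to 70.0% identical to each other in pairs, and apart from 1 window in Aldh1a1 no 100-base window was shared with another gene. Aldh8a1, an aldehyde dehydrogenase of liver and kidney, had 2 reads in each pup.

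A closer copy of Aldh1a1 is Aldh1a7, also on chromosome 19, which in mice does not form retinoic acid efficiently. Their coding sequences were 91.6% identical over 1503 bases. The first 60 coding bases of each are shown as an example of how the copies differ, with the 3 differing bases in capitals.
Aldh1a1: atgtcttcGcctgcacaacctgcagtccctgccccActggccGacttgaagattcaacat
Aldh1a7: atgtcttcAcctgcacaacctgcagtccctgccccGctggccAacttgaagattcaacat
Only 1 of 1954 windows of 100 bases in Aldh1a1 occurred in Aldh1a7. Aldh1a7 had 8.27 and 8.36 TPM, and Aldh1a1 exceeded it 3.57-fold (log2 1.84 ± 0.021, SD, n = 2).

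Breakdown genes all lay under 1 TPM in both pups. Cyp26b1 (ENSMUSG00000063415.8, chromosome 6, 84571414 to 84593908), which hydroxylates retinoic acid, had 0.32 TPM in both pups, from 53 and 41 reads. Cyp26a1, the form that retinoic acid induces most strongly in many cells, had 0.12 and 0.04 TPM from 7 and 2 reads, and Cyp26c1 had 2 reads and 0. Cyp26b1 exceeded Cyp26a1 2.39-fold (log2 1.26 ± 0.46), a log2 ratio that ran from 0.29 with a pseudocount of 1 TPM to 2.67 in CPM. Summed, Aldh1a1, Aldh1a2 and Aldh1a3 came to 96.8 and 99.2 TPM, against 0.470 and 0.360 TPM for the 3 Cyp26 genes, a ratio of 206-fold in pup 1 and 276-fold in pup 2. The Cyp26 sums rest on few reads. For Cyp26b1 over Aldh1a2 the log2 ratio was -6.22 ± 0.019, or -4.61 with a pseudocount of 1 TPM and -5.39 in CPM.

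Receptors for retinoic acid were present at moderate levels, 6 of 7 at 1 TPM or more in both pups. Rara led with 18.0 and 17.8 TPM, followed by its partners Rxrb (16.6 and 14.8 TPM) and Rxra (7.23 and 8.22 TPM) and by Rarg (4.78 and 5.77 TPM). The deposited intervals of Rarg were wide, 4.57 to 12.1 TPM in pup 1 and 5.19 to 15.0 TPM in pup 2. By posterior mean TPM Rarg (7.39 and 8.92) lay above Rxra (7.34 and 8.32). Among 7 genes known to respond to retinoic acid, 4 (57.1%) passed 1 TPM in both pups, near the 59.1% of nuclear protein-coding genes. These were Rarres2, which encodes chemerin (118 and 123 TPM), the transglutaminase Tgm2 (32.5 and 32.5 TPM), the coregulator Nrip1 (20.6 and 22.4 TPM) and Rarres1 (11.8 and 10.9 TPM). Hoxb1 had no read, and Stra8, a germ cell gene, had 2 reads and 0. Over all 65 other genes of the pathway, 41 reached 1 TPM in both pups, also near that 59.1%, and 9 were under 0.1 TPM in both.

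**Figure D3:**
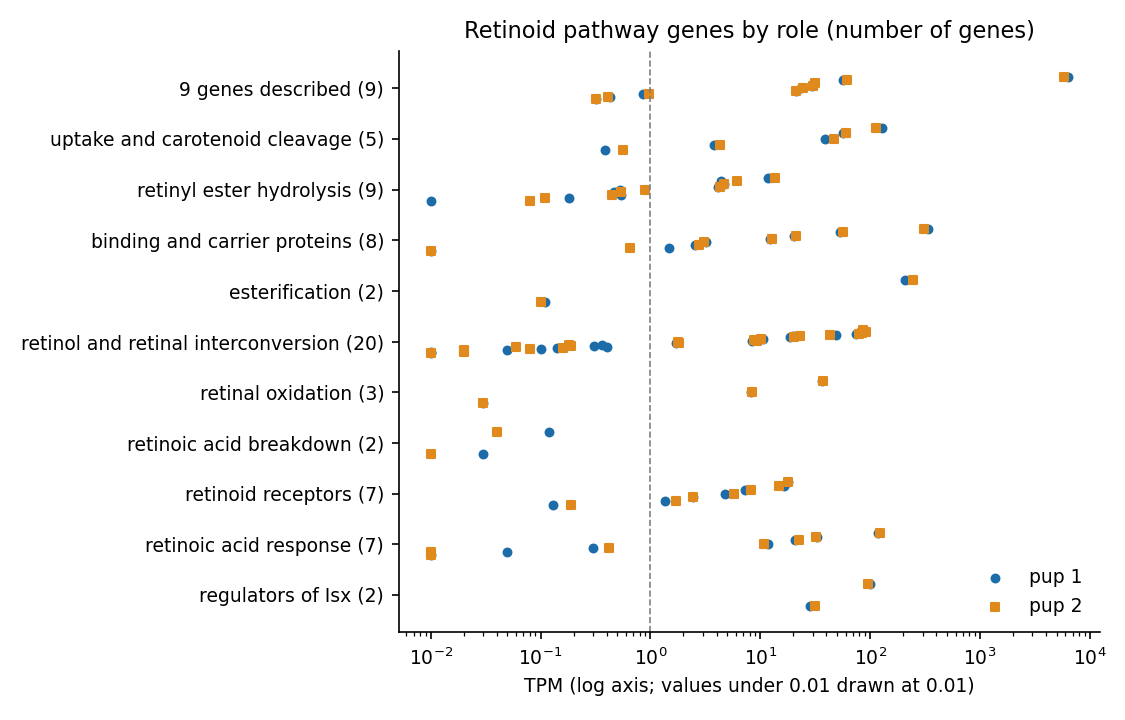
TPM (log axis) of the 9 genes described, in the top row, and of 65 other genes of the retinoid pathway by role, for pup 1 (circles) and pup 2 (squares); the dashed line marks 1 TPM. In the breakdown row no gene reaches 1 TPM, while every other row has genes above it.

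Littermates had nearly the same levels of these genes. The ratio of pup 1 to pup 2 lay between 0.935 for Rdh7 and 1.17 for Bco1, with a median log2 ratio of 0.04 over the 9 genes and 0.01 over all genes tested. These ratios use counts and normalised library sizes, a different scale from TPM. For Lrat, Aldh1a1 and Aldh1a2 the ratios were 1.01, 1.01 and 1.03, while their TPM was slightly higher in pup 2. None of the 9 genes was called over 2-fold apart, against 0.796% of 19088 genes, so their count was near the background. The exact 95% interval contained 1 for 8 of the 9 genes, and it lay within 0.5 to 2 for 8 of the 9, the exception being Bco1 (0.676 to 2.06) with its few reads. Intervals were also wide for Rdh7 (0.607 to 1.45) and Cyp26b1 (0.676 to 1.60). Rbp2 was 1.12-fold higher in pup 1 (exact 95% interval 1.11 to 1.13). At its depth this is outside counting error, though 2 pups give no test of it. The interval takes the normalised library sizes as exact, and the gap was smaller on other scales. In pups 1 and 2 Rbp2 had 6292 and 5871 TPM, or 0.291% and 0.266% of all expected counts. The 8 enterocyte markers went both ways between pups. Apoa4 stood at 1.199, Fabp2 at 1.12, Cdhr5 at 1.12, Fabp1 at 1.097, Anpep at 1.077 and Slc5a1 at 1.009, while Vil1 stood at 0.930 and Lct at 0.914. Their part in the ratio of Rbp2 was not tested. Of the 55 other pathway genes with enough reads, none was called in either direction, with a median log2 ratio of 0.01.

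**Figure D4:**
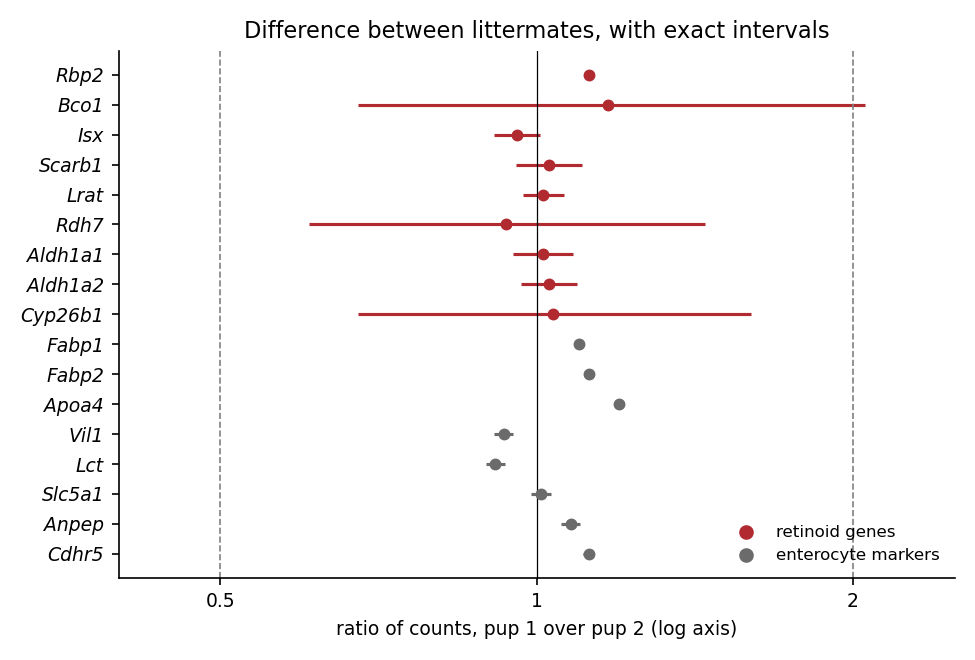
Ratio of normalised counts, pup 1 over pup 2 (log axis), for the 9 retinoid genes (red) and 8 enterocyte markers (grey), with exact 95% intervals as lines and dashed lines at 0.5 and 2. All points lie close to 1, and only the interval of Bco1 crosses 2.

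The libraries carried intestinal markers, with all 8 enterocyte markers, all 5 mesothelial and all 6 fibroblast markers at 1 TPM or more in both pups. In whole tissue, fewer cells of a type and less RNA per cell cannot be told apart, and which cells held each retinoid transcript was not tested. Aldh1a2 is known from mesothelium and from gut dendritic cells. The mesothelial list summed to 79.3 and 87.9 TPM, and the fibroblast list to 1273 and 1317 TPM. The 6 dendritic cell markers summed to 3.61 and 3.64 TPM, with 2 at 1 TPM or more in both pups. Those 2 were Zbtb46 (1.71 and 1.80 TPM) and Itgax (1.25 and 1.18 TPM), while Itgae had 0.24 and 0.25 TPM. The pups did differ elsewhere. The 5 stomach markers summed to 68.2 TPM in pup 1 and 303 TPM in pup 2, with 4 called higher in pup 2, and 4 of 8 colon markers were called higher in pup 1, against 0.796% of all genes called in either direction. Of the 4 ileum markers, which summed to 595 and 650 TPM, Slc10a2 was called higher in pup 1 (ratio 4.44), and Fabp6 stood at 1.51, Slc51b at 0.892 and Slc51a at 0.886. The upper small intestine list, the segment where carotenoid and retinol uptake is highest, summed to 949.6 and 1019 TPM.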

How the data were processed

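Intestine of 2 newborn pups was profiled by total RNA-seq, 1 library each. The authors deposited, per gene and transcript, expected counts (estimated reads, with shared reads divided), TPM and posterior mean TPM scaled over all features, interval bounds of TPM (a signal of unstated coverage level) and, per the file headers, the percent of a gene that each transcript makes up. The assembly was mm10 with annotation M4, per the deposited text file; no header or label used here names an aligner, a quantifier or a strand setting.

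Symbols and positions came from GENCODE M21 (GRCm38, the assembly mm10 names), matched for 42462 of 43346 Ensembl genes. Promoters were RefSeq's (GRCm38.p6). Gene pairs used log2(TPM + 0.1). Ratios of pup 1 to pup 2 came from rounded expected counts, TMM library sizes (edgeR 4.0.16, R 4.3.3) and exact (Clopper-Pearson) 95% intervals (SciPy 1.17.1); a gene was called if the interval lay wholly over 2-fold at a summed count of 10 or more. This rule was tested on simulated counts that varied by counting error only, so that test does not cover variation between pups. DESeq2 1.42.0 size factors were an alternative. Coding sequences were aligned with Biopython 1.88. Tables and plots used Python 3.11.15, numpy 2.4.6, pandas 2.3.3 and matplotlib 3.10.9.

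The 9 genes and the 65 other pathway genes were chosen with earlier results of these data known. Genes named were the 4 highest of each list, at most 4 of its genes that stayed under 0.1 TPM in each pup, all genes of 15 pairs and the 3 nuclear protein-coding genes nearest to Rbp2, except 1 gene that is not reported here. Motifs were chosen after the promoters were seen.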

Additional observations from a re-analysis of the deposited data

How the results depend on the processing

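Of the 9 retinoid genes, 6 reached 1 TPM in both pups, also in either pup alone, at 5 TPM and with TPM rescaled to nuclear genes; the count was 7 by posterior mean TPM, where Rdh7 passed, and 9 at 0.1 TPM. For the other pathway genes the count of 41 ran from 30 at 5 TPM to 53 at 0.1 TPM, and was 41 and 42 in single pups. The median level over the 9 genes, 24.1 TPM, was 23.6 by posterior mean TPM, 23.7 to 24.4 in single pups and 26.4 after rescaling to nuclear genes, which by construction raises each value alike within a pup. In CPM without length normalisation the order by mean changed, with Lrat above Isx, and Cyp26b1 above Rdh7 and Bco1. Within that new order, 7 of 8 neighbours were apart. All 15 gene pairs kept their direction in every alternative run. No retinoid gene was over 2-fold apart between pups under library totals, DESeq2 size factors, no minimum count, a summed count of 50 or 1.5-fold. Over all genes the 152 calls became 154 under library totals, 159 with no minimum, 64 at a summed count of 50 and 283 at 1.5-fold. A summed count of 50 tests fewer genes by construction, and 1.5-fold is a lower threshold. The number of transcripts at 10% or more, 10, was also 10 at 5% and 20%. Between-pup ratios could not be recomputed without a pup. No paired analysis was possible because there is 1 group. Depth limits Bco1, Rdh7 and Cyp26b1, with 24 to 53 reads each.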
